A study of Homo sapiens with 2 samples.

Results

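The 9 genes described here belong to the NRF2 antioxidant pathway and were taken by gene name from the deposited tables: NFE2L2, KEAP1, NQO1, GCLC, GCLM, HMOX1, TXNRD1, SRXN1 and AKR1B10. All 9 of the 9 were found among the 21225 genes of both tables, and each averaged 1 FPKM or more over both libraries. FPKM are fragments scaled by transcript length and sequencing depth, a unit read from the values because the tables do not name it. Their RNA was measured in Huh7 cells, an established human hepatoma line, in 1 library from cells transfected with an shRNA against E2F6 and in 1 library from cells with a control shRNA. The time between transfection and harvest, the shRNA sequence and the number of cultures behind each library are not given in the sources used here. E2F6 is a transcription factor of the E2F family that represses genes, and its knockdown is the only labelled difference between the libraries.

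NRF2, the product of NFE2L2, is a transcription factor that switches on detoxifying and antioxidant genes through a short DNA motif, the antioxidant response element, to which it binds together with a small MAF protein. In unstressed cells KEAP1 holds NRF2 in the cytoplasm and hands it to the CUL3 ubiquitin ligase for destruction, and oxidants or electrophiles that modify KEAP1 let NRF2 build up. NRF2 is therefore controlled largely at the protein level, which RNA does not show. In liver cancer the pathway is often active, and AKR1B10, an aldo-keto reductase that reduces retinaldehyde and lipid aldehydes, is among the genes known to be raised in hepatocellular carcinoma.

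Promoter sequences close to the start site show where the letters of the response element core occur beside these genes. RefSeq promoters (build GRCh38.p14, 250 bases before to 50 after the start site) were found for 7 of the 9 genes, 10 promoters in all, and not for HMOX1 and AKR1B10. The core TGACNNNGC was searched on both strands, and so were the 4 forms of the E2F consensus, TTTCCCGC, TTTGGCGC, TTTCGCGC and TTTGCCGC. No matches overlapped. The response element core was present in 3 of the 7 genes, GCLM, KEAP1 and TXNRD1, and in 16.1% of all 27305 genes of the table (13.3% of its 35116 promoters). None was found for NFE2L2, NQO1, GCLC and SRXN1. Sequence outside this window was not searched, so these genes may have an element farther away. An E2F form was present in 1 of the 7 genes, KEAP1, and in 3.99% of all genes (3.31% of promoters). The 150 bases before the start site are printed for the promoters with a match, in the direction of the gene, with complete matches in capitals. They lie at chr1:93909431-93909580 (minus strand) for GCLM, chr19:10503357-10503506 and chr19:10502772-10502921 (minus strand) for the first and second KEAP1 promoters, and chr12:104215629-104215778 and chr12:104286882-104287031 (plus strand) for the first and second TXNRD1 promoters.
GCLM: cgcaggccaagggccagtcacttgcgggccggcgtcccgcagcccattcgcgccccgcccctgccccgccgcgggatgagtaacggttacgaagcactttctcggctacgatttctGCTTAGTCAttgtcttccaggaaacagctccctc
KEAP1 first: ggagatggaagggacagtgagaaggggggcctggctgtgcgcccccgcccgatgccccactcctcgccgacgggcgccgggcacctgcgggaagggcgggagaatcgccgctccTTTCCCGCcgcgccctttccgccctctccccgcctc
KEAP1 second: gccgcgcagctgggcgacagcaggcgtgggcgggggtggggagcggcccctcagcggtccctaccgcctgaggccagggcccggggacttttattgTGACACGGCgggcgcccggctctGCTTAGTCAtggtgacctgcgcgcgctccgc
TXNRD1 first: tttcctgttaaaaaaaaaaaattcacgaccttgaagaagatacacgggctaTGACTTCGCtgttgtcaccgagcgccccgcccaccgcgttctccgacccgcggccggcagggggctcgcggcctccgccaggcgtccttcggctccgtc
TXNRD1 second: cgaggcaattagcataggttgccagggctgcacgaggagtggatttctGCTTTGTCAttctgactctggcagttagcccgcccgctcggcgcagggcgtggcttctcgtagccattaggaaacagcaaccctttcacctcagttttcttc

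Read on its own strand, the core in GCLM was TGACTAAGC, at positions -34 to -26 from the start site, and the second KEAP1 promoter held the same 9 letters at -31 to -23. That promoter held a further core, TGACACGGC, at -54 to -46, and the first KEAP1 promoter held the E2F form TTTCCCGC at -36 to -29. The first TXNRD1 promoter held TGACTTCGC at -99 to -91, and a match at -8 to 1 that crosses the start site and is not in capitals. The second held TGACAAAGC at -102 to -94. A match describes letters only, and binding was not measured.

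The shRNA target was lower in the library labelled as its knockdown. E2F6 was at 0.997 FPKM with E2F6 shRNA and at 2.54 FPKM with control shRNA, or 39.3% of the control level with a 95% counting interval of 25.8 to 59.3%. Of the stretches of 50 bases (50-base words) in E2F6 transcripts, 11.6% also occur in other genes, mainly in the pseudogene E2F6P1. With 1 library a group no test between conditions was possible and no p-value is given. The intervals come from estimated fragment counts, cover counting error only, and say nothing about the spread between cultures. The rule of size asked for a mean of 1 FPKM or more over both libraries and for log2(FPKM + 1), E2F6 shRNA minus control shRNA, to be at or beyond 1 (higher) or -1 (lower). E2F6 itself, with a difference of -0.82, was short of this rule, and 428 genes had a lower difference. All 10 of 10 hepatocyte markers examined averaged 1 FPKM or more, with a summed level of 2380 FPKM with E2F6 shRNA and 3426 FPKM with control shRNA. AFP made up much of that sum, at 1064 FPKM with E2F6 shRNA and 1721 FPKM with control shRNA, and HNF4A (15.3 FPKM with E2F6 shRNA and 4.56 FPKM with control shRNA), APOA1 and TTR were higher in value with E2F6 shRNA. Of the 10 markers listed for each other type, that mean was reached by 4 for fibroblasts and stellate cells, 2 for macrophages, 1 for the endothelium and 1 for lymphocytes, and their part in the results was not tested. Over the 7 fibroblast and stellate markers found, the summed level was 63.3 FPKM with E2F6 shRNA and 42.7 FPKM with control shRNA, most of it COL1A1 (36.7 FPKM with E2F6 shRNA and 20.1 FPKM with control shRNA) and COL1A2, while LUM, PDGFRA, PDGFRB and RGS5 were lower in value with E2F6 shRNA. Over the 4 macrophage markers found it was 135 FPKM with E2F6 shRNA and 242 FPKM with control shRNA, nearly all of it LYZ, with CD68 at 1.74 FPKM with E2F6 shRNA and 1.78 FPKM with control shRNA. In bulk RNA fewer cells with a transcript and less of it per cell cannot be told apart.

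By the rule of size 1 of the 9 genes was lower, AKR1B10, and 0 were higher, where 2.06% of 11574 genes were lower and 1.17% higher. The 8 genes short of the rule leaned the same way: 7 had a difference below 0, and HMOX1 alone was above 0. With AKR1B10 included 8 of 9 were below 0, against 50.3% of all genes. The median difference of the 9 was -0.47, against -0.0021 over all genes, and -0.42 over the 8 without AKR1B10. The counting interval of the ratio lay below 1 for 7 of the 9 genes, against 23.5% of 11527 genes. It lay above 1 for HMOX1, against 20.9% of genes, and held 1 for KEAP1. Such intervals narrow as fragments increase, so these counts also depend on the level of a gene. The intervals are not corrected for GC content. The 9 genes were chosen with earlier results of these data known, so the shares of all genes beside these counts are for description only.

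**Figure D1:**
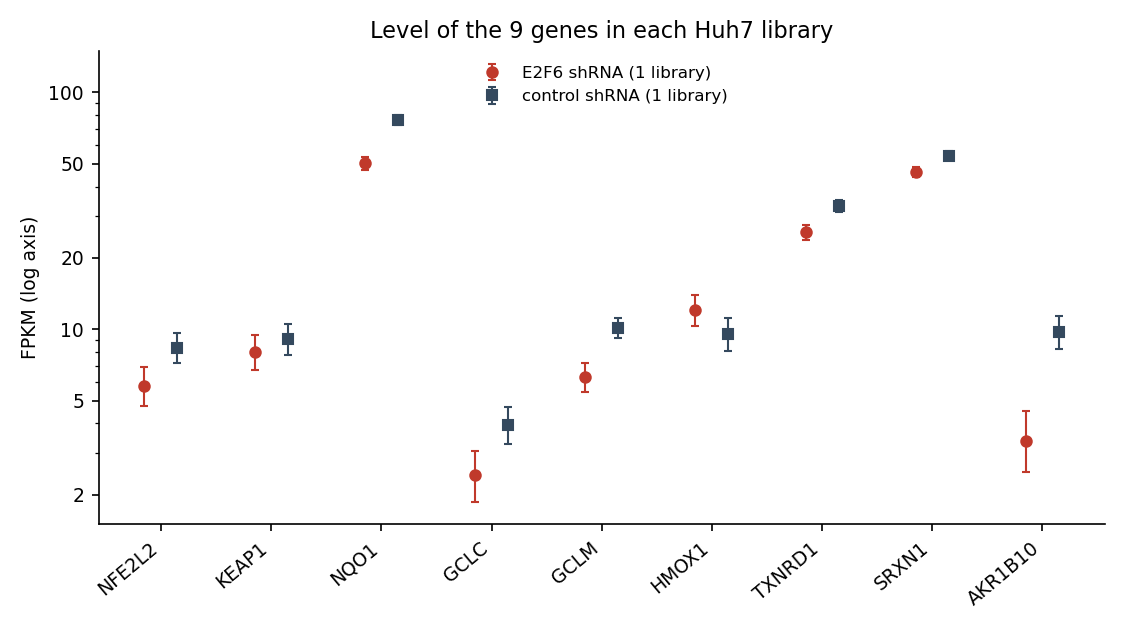
FPKM (log axis) of the 9 genes in the E2F6 shRNA library (circles, left) and the control shRNA library (squares, right), with 95% Poisson counting intervals and 1 library a group. The pair for AKR1B10 is the farthest apart, at 3.37 FPKM with E2F6 shRNA and 9.72 FPKM with control shRNA, and HMOX1 is the gene whose E2F6 shRNA value is the higher one.

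The order of levels, in FPKM and so per length, was led in both libraries by NQO1, SRXN1 and TXNRD1, with GCLC last. NQO1 and SRXN1 were at 50.1 and 46.1 FPKM with E2F6 shRNA, with intervals that met, and at 76.6 and 54.2 FPKM with control shRNA, with intervals that did not. Below TXNRD1 the E2F6 shRNA library had HMOX1, KEAP1, GCLM, NFE2L2 and AKR1B10 in that order, and the control shRNA library GCLM, AKR1B10, HMOX1, KEAP1 and NFE2L2. In the control shRNA library these 5 lay between 8.34 and 10.1 FPKM, and each neighbour's interval met the next, so their order is not resolved. In the E2F6 shRNA library HMOX1 stood clear of KEAP1, and NFE2L2 of AKR1B10, while the intervals of KEAP1 and GCLM, of GCLM and NFE2L2, and of AKR1B10 and GCLC met. AKR1B10 was in place 8 of the 9 with E2F6 shRNA and in place 5 with control shRNA.

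NFE2L2 and KEAP1 encode the factor and its repressor. NFE2L2 was at 5.73 FPKM with E2F6 shRNA (4.75 to 6.90) and at 8.34 FPKM with control shRNA (7.20 to 9.60), a ratio of 0.688 (0.543 to 0.873). KEAP1 was at 8.03 FPKM with E2F6 shRNA (6.74 to 9.45) and at 9.08 FPKM with control shRNA (7.82 to 10.5), a ratio of 0.884 whose interval of 0.704 to 1.10 includes 1. The level of NFE2L2 over that of KEAP1 was 0.714 with E2F6 shRNA and 0.918 with control shRNA, but the intervals of both genes' ratios overlapped. Their differences in log2(FPKM + 1) were -0.47 for NFE2L2 and -0.16 for KEAP1. After correction for the GC content of the transcripts, described below, both were at -0.31. In GENCODE release 29, 17.6% of the exon bases of NFE2L2 are shared with a non-coding gene on the same strand, listed at 0.135 FPKM with E2F6 shRNA and 0.116 FPKM with control shRNA. A further 0.903% overlap AGPS on the other strand, at 14.8 FPKM with E2F6 shRNA and 27.1 FPKM with control shRNA, and whether reads were counted by strand is not given in the sources used here.

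Among other NRF2 regulators and partners, 17 of 19 averaged 1 FPKM or more, and of these 2 were lower by the rule, 0 higher and 15 short of it, with a median of 0.15. In this and the other lists, highest and lowest refer to the difference and not to the level. Both lower genes encode proteins that act at the same DNA motif as NRF2. MAFF, a small MAF protein that pairs with NRF2 or with its competitors, was at 0.614 FPKM with E2F6 shRNA and 3.85 FPKM with control shRNA, 6.27-fold lower (3.76 to 10.5) on 19 estimated fragments with E2F6 shRNA and 135 with control shRNA. BACH1, a repressor that competes with NRF2 for the element and is best known for silencing HMOX1, was at 1.94 FPKM with E2F6 shRNA and 5.27 FPKM with control shRNA, 2.72-fold lower (1.91 to 4.05). Correction for GC content removes the trend of the difference on the GC content of the transcripts over all protein-coding genes. After it the difference was -1.74 for MAFF and -0.76 for BACH1, which was then short of the rule. The median of these 17 genes was then 0.068. The other small MAF genes, named here after their values were seen, were higher in value with E2F6 shRNA but short of the rule. MAFG was at 4.27 FPKM with E2F6 shRNA and 2.25 FPKM with control shRNA, and MAFK at 8.55 FPKM with E2F6 shRNA and 6.87 FPKM with control shRNA. CUL3, the ligase scaffold that KEAP1 works with, was at 4.10 FPKM with E2F6 shRNA and 5.99 FPKM with control shRNA. SQSTM1, the autophagy receptor p62 that sequesters KEAP1, was at 38.6 FPKM with E2F6 shRNA and 32.8 FPKM with control shRNA. After correction for GC content the difference of CUL3 went from -0.46 to 0.0047, and that of SQSTM1 from 0.23 to 0.068.

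**Figure D2:**
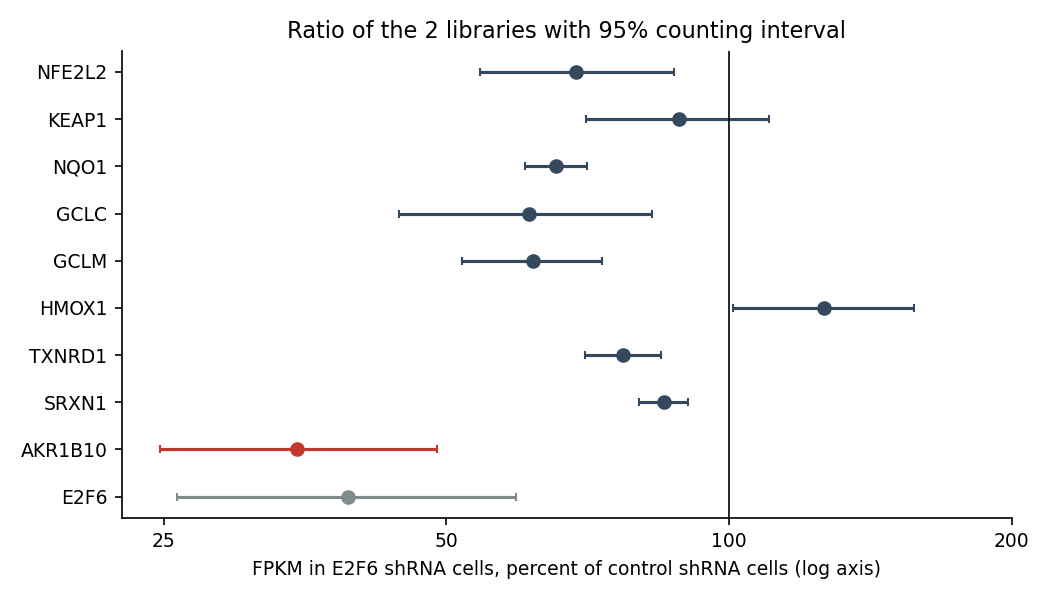
FPKM in the E2F6 shRNA library as a percent of the control shRNA library (log axis) for the 9 genes and E2F6, with the 95% counting interval and 1 library a group. AKR1B10 (red) is at 34.7% and E2F6 (grey) at 39.3%, the other genes lie between 61.2% and 126%, and the interval of KEAP1 crosses the line of equal levels.

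NQO1 encodes a quinone reductase and is the most used readout of NRF2 activity. It was the highest of the 9 genes, at 50.1 FPKM with E2F6 shRNA (47.1 to 53.3) and 76.6 FPKM with control shRNA (73.1 to 80.2), a ratio of 0.654 (0.606 to 0.707) and a difference of -0.60. Its level ranked 678th among all genes with E2F6 shRNA and 380th with control shRNA. On the other strand AC092115.2, which is not analysed here, overlaps 17.7% of the exon bases of NQO1. The NQO1 value may hold reads of that gene if reads were not counted by strand. Of 10 other quinone, carbonyl and conjugation enzymes at that mean, 0 passed the rule in either direction and 8 had a difference below 0. The median was -0.36, and -0.22 after correction for GC content. The lowest were UGDH, which makes the UDP-glucuronic acid used in conjugation, at 10.7 FPKM with E2F6 shRNA and 20.01 FPKM with control shRNA, and the aldehyde dehydrogenase gene ALDH3A2 at 1.60 FPKM with E2F6 shRNA and 3.06 FPKM with control shRNA. The highest was the epoxide hydrolase gene EPHX1, at 19.2 FPKM with E2F6 shRNA and 12.9 FPKM with control shRNA. The oxidative stress response gene OSGIN1 was next at 4.15 FPKM with E2F6 shRNA and 4.08 FPKM with control shRNA. After the correction UGDH was still lowest at -0.69, NQO2 was next at -0.64 and ALDH3A2 followed at -0.59. EPHX1 was still highest at 0.38, and CBR4 was next at 0.030, with OSGIN1 at -0.13.

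GCLC and GCLM encode the catalytic and the modifier subunit of glutamate-cysteine ligase, the rate-limiting enzyme of glutathione synthesis. GCLC was at 2.41 FPKM with E2F6 shRNA (1.86 to 3.06) and 3.94 FPKM with control shRNA (3.29 to 4.70), a ratio of 0.612 (0.446 to 0.828). GCLM was at 6.26 FPKM with E2F6 shRNA (5.44 to 7.17) and 10.1 FPKM with control shRNA (9.16 to 11.2), a ratio of 0.619 (0.520 to 0.732). Both subunit genes differed by nearly the same factor, so that the level of GCLC over that of GCLM was 0.385 with E2F6 shRNA and 0.389 with control shRNA. Neither passed the rule, with differences of -0.53 and -0.61. The values of GCLC rest on 66 estimated fragments with E2F6 shRNA and 126 with control shRNA.

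The genes that supply and recycle glutathione were mixed. Of 13 at that mean, 1 was lower, 1 higher and 11 short of the rule, with a median of -0.035. After correction for GC content the median was -0.19. The lower gene was SLC7A11, the cystine importer xCT that feeds glutathione synthesis, at 1.73 FPKM with E2F6 shRNA and 5.56 FPKM with control shRNA, 3.22-fold lower (2.65 to 3.92). Its transcripts had a GC content of 35.9%, and after correction for GC content its difference of -1.27 became -0.74, short of the rule. The higher gene was GLO1, glyoxalase 1, which clears methylglyoxal with glutathione, at 54.2 FPKM with E2F6 shRNA and 26.1 FPKM with control shRNA, a ratio of 2.08 (1.91 to 2.26). Its difference of 1.03 was 1.47 after correction for GC content and 0.98, short of the rule, under quantile normalization. Of 12 glutathione transferases none passed the rule in either direction (median 0.084, and 0.061 after correction for GC content). The lowest was MGST1 at 7.54 FPKM with E2F6 shRNA and 12.2 FPKM with control shRNA. The next was GSTA1 at 1.44 FPKM with E2F6 shRNA and 2.42 FPKM with control shRNA. After correction for GC content the difference of MGST1 went to -0.26, against -0.63 before, and that of GSTA1, at -0.34, was the lower. GSTM1, at 8.66 FPKM with E2F6 shRNA and 6.81 FPKM with control shRNA, and GSTO1, at 77.7 FPKM with E2F6 shRNA and 63.7 FPKM with control shRNA, were the highest. GSTM1 shares 49.7% and GSTA1 26.2% of their 50-base words with other genes, so the division of reads among these families is uncertain. Of 7 conjugate export pumps 6 had a difference below 0 and none passed the rule, with a median of -0.27. After correction for GC content all 7 were below 0, with a median of -0.34. ABCC2, the canalicular pump MRP2, was lowest at 9.19 FPKM with E2F6 shRNA and 17.2 FPKM with control shRNA. ABCC3 was at 0.726 FPKM with E2F6 shRNA and 1.35 FPKM with control shRNA. ABCC1 and ABCC4 had the highest differences of the pumps, ABCC1 at 3.27 FPKM with E2F6 shRNA and 3.27 FPKM with control shRNA and ABCC4 at 4.84 FPKM with E2F6 shRNA and 5.63 FPKM with control shRNA.

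**Figure D3:**
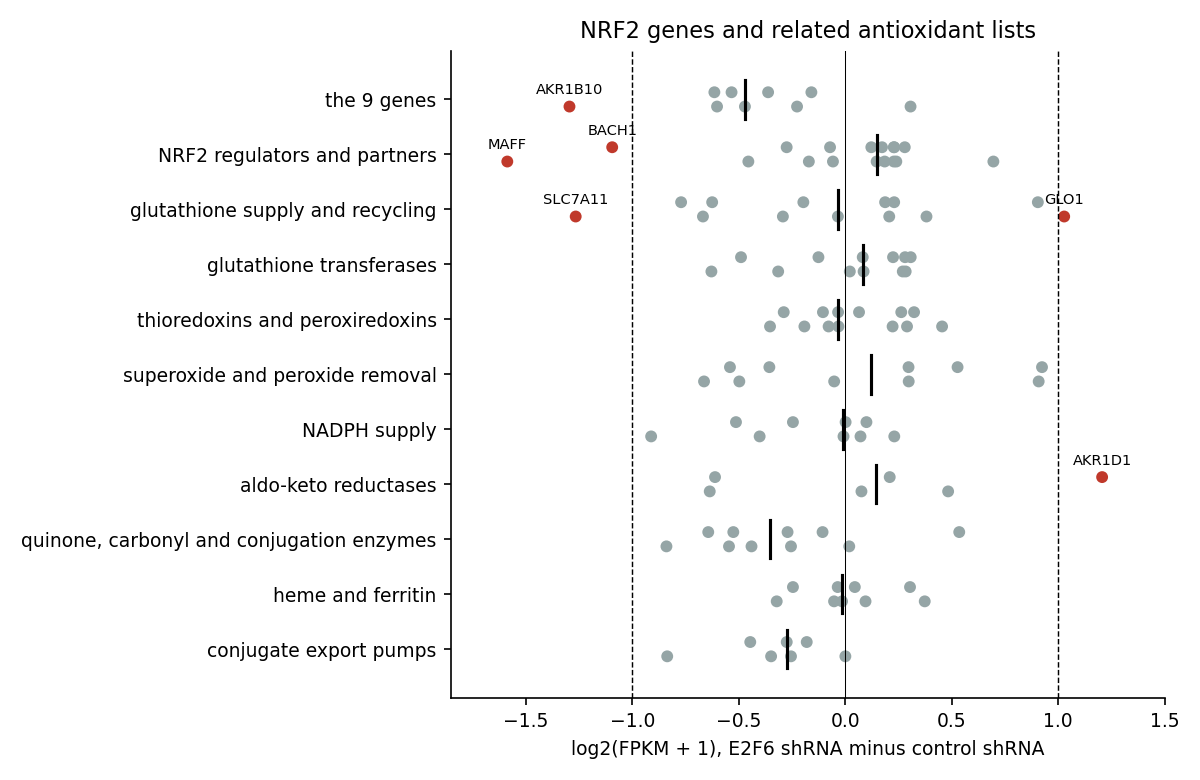
Differences in log2(FPKM + 1), E2F6 shRNA minus control shRNA, of the 9 genes and of the genes of 10 related lists that averaged 1 FPKM or more, where each point is a gene, the bar is the list's median and red points passed the rule of size (dashed lines at -1 and 1). The points past the lines are AKR1B10, MAFF, BACH1 and SLC7A11 on the left and GLO1 and AKR1D1 on the right.

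TXNRD1 and SRXN1 serve the thioredoxin system. TXNRD1, the cytosolic thioredoxin reductase, was at 25.7 FPKM with E2F6 shRNA (23.9 to 27.6) and 33.3 FPKM with control shRNA (31.4 to 35.3), a ratio of 0.771 (0.702 to 0.846). SRXN1, sulfiredoxin, which restores overoxidized peroxiredoxins, was at 46.1 FPKM with E2F6 shRNA (44.1 to 48.3) and 54.2 FPKM with control shRNA (52.0 to 56.3), a ratio of 0.852 (0.802 to 0.905). SRXN1 has 1 annotated transcript, and its values correspond to 1833 fragments with E2F6 shRNA and 2504 with control shRNA. These were the most of the 9 genes when fragments were estimated from the mean transcript length. With its longest protein-coding transcript NQO1 had more, at 2149 with E2F6 shRNA and 3823 with control shRNA. SRXN1 shares 85.0% of its exon bases with AL121758.1, a longer gene on the same strand that is not analysed here. The SRXN1 value may therefore hold reads of that gene. Of 13 thioredoxins and peroxiredoxins none passed the rule in either direction (median -0.032, and 0.067 after correction for GC content). TXN2, the mitochondrial thioredoxin, was highest at 26.6 FPKM with E2F6 shRNA and 19.1 FPKM with control shRNA, followed by TXNDC17 at 4.68 FPKM with E2F6 shRNA and 3.54 FPKM with control shRNA. TXNL1, at 3.92 FPKM with E2F6 shRNA and 5.29 FPKM with control shRNA, and PRDX3, the mitochondrial peroxiredoxin, at 79.2 FPKM with E2F6 shRNA and 97.03 FPKM with control shRNA, were the lowest. After correction for GC content their differences of -0.35 and -0.29 became -0.077 and -0.055, and other genes of the list were lower.

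HMOX1, heme oxygenase 1, was the exception to the downward lean. It was at 12.0 FPKM with E2F6 shRNA (10.3 to 13.9) and 9.54 FPKM with control shRNA (8.11 to 11.1), a ratio of 1.26 with an interval of 1.01 to 1.57 and a difference of 0.31, on 172 estimated fragments with E2F6 shRNA and 159 with control shRNA. Of 9 other heme and ferritin genes none passed the rule in either direction and the median was -0.015. After correction for GC content it was -0.051, with 7 of the 9 differences below 0, against 5 before. ALAS1, the first enzyme of heme synthesis, was at 29.3 FPKM with E2F6 shRNA and 22.4 FPKM with control shRNA, and FECH, its last enzyme, at 5.71 FPKM with E2F6 shRNA and 4.44 FPKM with control shRNA. BLVRA, the biliverdin reductase that acts after HMOX1, was at 17.9 FPKM with E2F6 shRNA and 22.6 FPKM with control shRNA, and the heme exporter gene FLVCR1 at 6.62 FPKM with E2F6 shRNA and 8.04 FPKM with control shRNA.

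Enzymes that remove superoxide and peroxide had differences on both sides of 0, and none of 10 passed the rule in either direction (median 0.12, and -0.026 after correction for GC content). The glutathione peroxidase genes GPX1 and GPX2 came closest from below the upper threshold. GPX1 was at 58.6 FPKM with E2F6 shRNA and 30.4 FPKM with control shRNA, a ratio of 1.93 (1.71 to 2.17), and GPX2 at 12.2 FPKM with E2F6 shRNA and 6.05 FPKM with control shRNA, a ratio of 2.02 (1.55 to 2.63). Their differences were 0.92 and 0.91, and GPX2 passed the rule with a pseudocount of 0.1, where it was 1.003. GPX1 shares 13.9% of its 50-base words with the pseudogene GPX1P1. SOD2, the mitochondrial superoxide dismutase, was lowest at 4.93 FPKM with E2F6 shRNA and 8.39 FPKM with control shRNA. GPX8 followed at 0.687 FPKM with E2F6 shRNA and 1.46 FPKM with control shRNA, on 14 and 34 estimated fragments. After correction for GC content GPX3 was lowest at -0.66, with SOD2 at -0.55 and GPX8 at -0.21. Of 9 genes of NADPH supply, which powers both the glutathione and the thioredoxin systems, none passed the rule in either direction (median -0.0084). After correction for GC content the median was -0.14, with 7 of the 9 differences below 0, against 5 before. RPIA, a pentose phosphate isomerase, was lowest at 8.75 FPKM with E2F6 shRNA and 17.3 FPKM with control shRNA, and ME1, malic enzyme 1, was next at 16.2 FPKM with E2F6 shRNA and 23.6 FPKM with control shRNA. The difference of ME1 was -0.51, and -0.14 after correction for GC content, when TKT at -0.41 was next. TALDO1, the transaldolase of that pathway, was at 45.7 FPKM with E2F6 shRNA and 42.6 FPKM with control shRNA, a difference of 0.099 that was -0.056 after the correction.

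AKR1B10 showed the largest difference of the 9 genes. It was at 3.37 FPKM with E2F6 shRNA (2.50 to 4.52) and 9.72 FPKM with control shRNA (8.23 to 11.3), 2.89-fold lower (2.05 to 4.04) and a difference of -1.29, on 47 estimated fragments with E2F6 shRNA and 156 with control shRNA. The intervals of the levels did not meet, and 93 of the 11574 genes, 0.804%, had a lower difference. AKR1B10 was among the genes chosen with earlier results known, so this place describes it and is not a test. The difference was between -1.26 and -1.50 under the pseudocount of 0.1, centring, quantile normalization, a trimmed-mean (TMM) factor and the correction for GC content, and passed the rule in each. Of its 50-base words 14.6% occur in transcripts of other genes, 9.69% in the neighbouring paralog AKR1B15, which was listed at 0 FPKM with E2F6 shRNA and 0.0642 FPKM with control shRNA. GENCODE names 2 pseudogenes after AKR1B10.

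Other aldo-keto reductases, enzymes that reduce aldehydes and ketones with NADPH, spread to both sides of 0. Of 6 at that mean, 1 was higher, 0 lower and 5 short of the rule, with a median of 0.14, which was -0.012 after correction for GC content. AKR1D1, the steroid 5-beta-reductase of bile acid synthesis, was the higher one, at 3.48 FPKM with E2F6 shRNA and 0.942 FPKM with control shRNA, a ratio of 3.69 (2.25 to 6.38) on 67 estimated fragments with E2F6 shRNA and 21 with control shRNA. Its difference was 1.21, and 1.43 after correction for GC content. AKR1B1, aldose reductase and a close relative of AKR1B10, was named after its values were seen and stood at 73.9 FPKM with E2F6 shRNA and 52.6 FPKM with control shRNA, a ratio of 1.41 (1.28 to 1.54). The level of AKR1B1 over that of AKR1B10 was 21.9 with E2F6 shRNA and 5.41 with control shRNA. AKR1C1 and AKR1C2, near copies of each other that are well-known NRF2 targets and were also named after their values were seen, were at 38.3 FPKM with E2F6 shRNA and 59.1 FPKM with control shRNA and at 13.8 FPKM with E2F6 shRNA and 22.01 FPKM with control shRNA. Their ratios of 0.649 and 0.627 lay beside those of NQO1, GCLC and GCLM, and neither passed the rule.

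**Figure D4:**
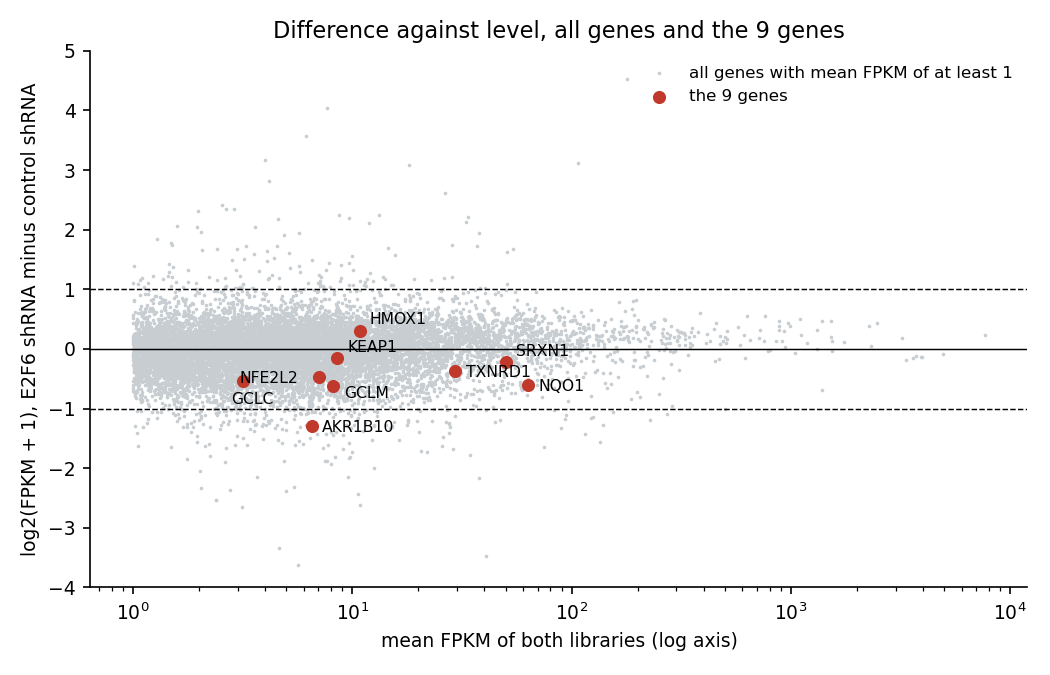
Difference in log2(FPKM + 1), E2F6 shRNA minus control shRNA, against the mean FPKM of both libraries (log axis) for all genes that averaged 1 FPKM or more (grey) and the 9 genes (red), with the rule of size as dashed lines. The 9 genes lie between -1.29 and 0.31, and AKR1B10 is the one past a line.

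Together the 10 other lists held 106 genes that averaged 1 FPKM or more, of which 3 were lower, 2 higher and 101 short of the rule. Of these 106 genes 56 had a difference below 0, and the median was -0.033, close to that of all genes. After correction for GC content 60 of them were below 0, with a median of -0.057, against 0.010 over all genes. A further 13 of the 119 genes found were under that mean.

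The differences went with base composition, whose part in the results was not tested. Over protein-coding genes the median difference was -0.44 in the tenth with the lowest GC content of the transcripts, 39.8% or less, and 0.15 in the tenth with the highest, 61.6% or more. GCLM had 40.4% GC, NFE2L2 43.4%, GCLC 43.9%, TXNRD1 45.1%, AKR1B10 45.9%, NQO1 47.1% and SRXN1 53.6%, while HMOX1 had 60.2% and KEAP1 61.3%. With the trend removed, 8 of the 9 differences were still below 0, against 48.5% of all genes, and their median was -0.31. The corrected difference was -1.26 for AKR1B10, -0.61 for NQO1, -0.40 for GCLC, -0.37 for SRXN1, and between -0.29 and -0.31 for NFE2L2, KEAP1, GCLM and TXNRD1. For HMOX1 it was 0.15. SRXN1 and KEAP1 thus stood further below 0 after the correction than before, where they were at -0.23 and -0.16.

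**Figure D5:**
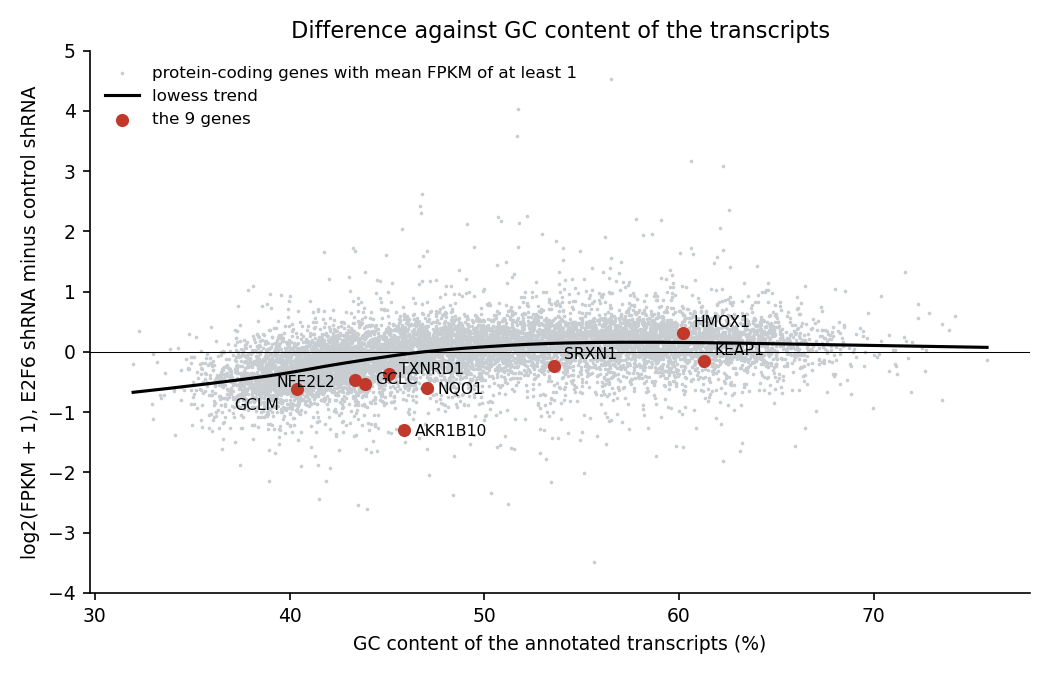
Difference in log2(FPKM + 1), E2F6 shRNA minus control shRNA, against the GC content of the annotated transcripts (%) for protein-coding genes that averaged 1 FPKM or more (grey), their lowess trend (line) and the 9 genes (red). HMOX1 lies above the trend and the other 8 genes below it, AKR1B10 farthest.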

How the data were processed

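RNA of 2 Huh7 libraries, 1 with E2F6 shRNA and 1 with control shRNA, was sequenced, and the authors deposited 1 gene table per library. Per the submitters' processing notes, HISAT2 2.0.4, StringTie 1.3.0 and build GRCh37 were used in roles not stated, while annotation release and strand are not given in the sources used here. The file headers name the sample and no unit. The deposited values were taken as FPKM, since they sum to 245097 with E2F6 shRNA and 235514 with control shRNA, and since values of genes with 1 transcript times transcript length came in whole steps (within 0.01 of a whole fragment for 97.9% of 5165 values with E2F6 shRNA and 97.9% of 5455 with control shRNA). The steps imply totals of 14724835 reads or fragments with E2F6 shRNA and 17139209 with control shRNA, which limits the precision of low genes. Of 21227 rows 2 were dropped per table, and 21047 of 21225 genes were found in GENCODE release 29, which is on another build and was used for lengths, GC content, biotypes, overlaps and chromosomes.

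Differences were log2(FPKM + 1), where the pseudocount of 1 makes differences of low genes smaller, while folds and ratios are of FPKM itself. Fragments were estimated from the mean transcript length, and 95% intervals are exact Poisson (levels) or exact conditional binomial (ratios). They are approximate for the 72.1% of annotated genes with several transcripts, and reads lacking molecular identifiers do not count independent molecules. No test between conditions was run. The 9 genes, the 10 other lists (123 genes, 119 found) and the markers were chosen with earlier results of these data known. From each other list the genes past the rule of size were named, or, where none or more than 4 were, the 2 highest and 2 lowest. For AKR1B10 the 3 protein-coding genes nearest in both log2 values were also named. One gene that this rule takes is not reported here. Any other gene was named after its values were seen. Overlap between genes was also described by the share of 50-base words of a gene's transcripts found in other genes. Alternatives were a pseudocount of 0.1, no minimum or a minimum mean of 5 FPKM, centring, quantile normalization, a TMM factor (30% and 5% trimmed), a lowess correction for GC content (span 0.3, 9900 genes), a 1.5-fold threshold, protein-coding genes alone and other transcript lengths. The requirement of a counting interval beside the rule of size was added after seeing the data. Procedures were tested on simulated data. Tools were Python 3.11.15 with scipy 1.17.1, pandas 2.3.3, matplotlib 3.10.9, statsmodels 0.14.6 and numpy 2.4.6.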

Additional observations from a re-analysis of the deposited data

How the results depend on the processing

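Of the 9 genes, AKR1B10 was lower and none higher by the rule of size under every alternative but the 1.5-fold threshold, where 3 were lower, with NQO1 (-0.60) and GCLM (-0.61) added, because the threshold is smaller. Their median of -0.47 lay between -0.31 (GC correction) and -0.53 (pseudocount of 0.1), and 8 of 9 differences stayed below 0 under each scaling. Scaling moved the median of all genes by 0.03 at most. With the pseudocount of 0.1, 269 genes were higher and 522 lower, and 4 genes of the other lists higher. With a minimum mean of 5 FPKM, which tests fewer genes, these counts were 67 and 128, with 1 list gene higher and 0 lower. With the 1.5-fold threshold they were 585 and 1080, with 6 list genes higher and 14 lower. Quantile normalization left 1 list gene higher and the GC correction 1 lower, MAFF, and for these the cause was not tested. With the shortest protein-coding transcript in place of the mean length, which gives fewer fragments, the intervals of NFE2L2 (0.450 to 1.05) and GCLC (0.342 to 1.06) came to include 1. Count tests were left out, since the values used are FPKM. With 1 library a group, replicate error is unknown. No paired analysis was possible because neither condition has a second library.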

Other observations

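The 3 protein-coding genes nearest to AKR1B10 in log2(FPKM + 1) of both libraries were RDX, CWC22 and CTNNBIP1, at distances of 0.046, 0.059 and 0.10. RDX, the membrane-cytoskeleton linker radixin, was at 3.39 FPKM with E2F6 shRNA and 10.1 FPKM with control shRNA. CWC22, a splicing factor, was at 3.44 FPKM with E2F6 shRNA and 10.1 FPKM with control shRNA. CTNNBIP1, an inhibitor of beta-catenin, was at 3.19 FPKM with E2F6 shRNA and 9.12 FPKM with control shRNA. The likeness is over 2 libraries only.

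The summed level of the 9 genes was 160 FPKM with E2F6 shRNA and 215 FPKM with control shRNA. AKR1C3, an aldo-keto reductase of steroid metabolism, is listed under 2 gene IDs. ENSG00000196139 was at 0.248 FPKM with E2F6 shRNA and 0.187 FPKM with control shRNA, and ENSG00000282883 at 0.0698 FPKM with E2F6 shRNA and 0.480 FPKM with control shRNA. The first ID rests on 3 estimated fragments in each library, with a ratio interval of 0.156 to 8.69, so no direction is resolved for it.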
